A study of Rattus norvegicus with 8 samples.

Results

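Retinoic acid is the signalling form of vitamin A, and 9 genes of its synthesis, binding and response were followed in the pituitary of lactating rats. They are Stra6, Rdh10, Aldh1a1, Aldh1a2, Aldh1a3, Crabp1, Crabp2, Cyp26b1 and Rarb. The genes were taken by name: every spot on the array that was not a control and carried one of these gene names was a member. Of the 9 names, 8 were found, each with 1 probe, and together they made up 26 of 42877 such spots and 8 of 30367 probes on each array. No spot used here carried the name Rarb, and that receptor was therefore not analysed under its own name.

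The samples were total RNA from the pituitaries of Wistar dams on postpartum day 7. They formed 2 groups. One held 4 samples from dams given TCDD, a dioxin and ligand of the aryl hydrocarbon receptor (AhR), and the other held 4 samples from control dams. Dose and day of exposure are not in the labels used here, nor is it said whether a sample was a single dam, so a p-value below covers the spread among these 8 samples and no more. Every sample was labelled with 1 dye and hybridised to its own whole-genome rat array, whose probes for the members are 60 bases long.

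Cells take up retinol from its carrier in blood, with STRA6 as a receptor for that carrier. RDH10 oxidises retinol to retinal, and the ALDH1A enzymes oxidise retinal to retinoic acid. CRABP proteins bind retinoic acid in the cell, CYP26 enzymes break it down, and the receptors RAR and RXR turn it into changes of transcription. In the pituitary, retinoic acid is known to act on hormone genes, that of growth hormone among them, and dioxins are known to lower the vitamin A stores of the rat liver.

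Sequences are shown for the probes on which the reading of 3 genes depends: Aldh1a3 and Crabp1, whose signals lay at the edge of detection, and LOC684994, the locus that the files describe as similar to the retinoic acid receptor beta. The Aldh1a3 probe (chr1:120847772-120853625, minus strand, rn4) and the Crabp1 probe (chr8:58320823-58325131, plus strand, rn4) each map to a span far longer than the probe, 5854 and 4309 bases, because each joins sequence from both sides of an intron. The LOC684994 probe lies at chr15:10517542-10517601 on the minus strand of rn4. All are printed 5′ to 3′ as the array files give them.
Aldh1a3: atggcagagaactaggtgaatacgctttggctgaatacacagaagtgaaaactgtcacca
Crabp1: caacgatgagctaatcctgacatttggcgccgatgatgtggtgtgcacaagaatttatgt
LOC684994: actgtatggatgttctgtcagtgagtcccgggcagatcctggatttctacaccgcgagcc

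The other 6 probes each lie in 1 unbroken stretch of rn4. Stra6 was read at chr8:61939430-61939489 on the plus strand and Rdh10 at chr5:2286375-2286434 on the minus strand. Aldh1a1 was read at chr1:223773152-223773211 and Aldh1a2 at chr8:75771061-75771120, both on the plus strand. The Crabp2 probe lies at chr2:180033998-180034057 on the plus strand and the Cyp26b1 probe at chr4:118735314-118735373 on the minus strand. No rn4 annotation was used here, so exon and UTR positions are not given for them.

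All values below are log2 of the processed signal of a probe minus the 75th percentile of its array, so that 0 is the level of a spot brighter than 75% of the others. A probe was called well above background on an array from the scanner's own flag, and genes with a probe so called on at least 4 of the 8 arrays were tested. Of the 8 members with a probe, 7 were tested. The groups were compared in limma over all 17361 genes tested, with an adjusted p of 0.05 as the threshold. The 75th percentile of the signal was 765 to 897 in the TCDD arrays and 805 to 932 in the control arrays. Between 71.1% and 73.9% of spots were well above background, and none was saturated. Each pair of arrays correlated at 0.989 to 0.996 across genes, which are not replicates. All 4 TCDD arrays were on 1 slide and all 4 control arrays on another, so slide and exposure cannot be told apart in any comparison here.

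None of the 7 members tested passed the threshold, against 0.0806% of all genes (14 of 17361). By limma 0 members had an unadjusted p under 0.05, against 10.7% of all genes, and 0 had groups that did not overlap, against 7.1%. The TCDD mean was above the control mean for 5 members (Stra6, Rdh10, Aldh1a2, Crabp2 and Cyp26b1) and below it for 2 (Aldh1a1 and Aldh1a3), where 56.4% of all genes were above 0. The median difference of the 7 members was 0.08, and that of all genes tested 0.02. These p-values do not show that levels were alike, and the 95% confidence intervals of the 7 members together reached from 0.587-fold to 1.79-fold.

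**Figure D1:**
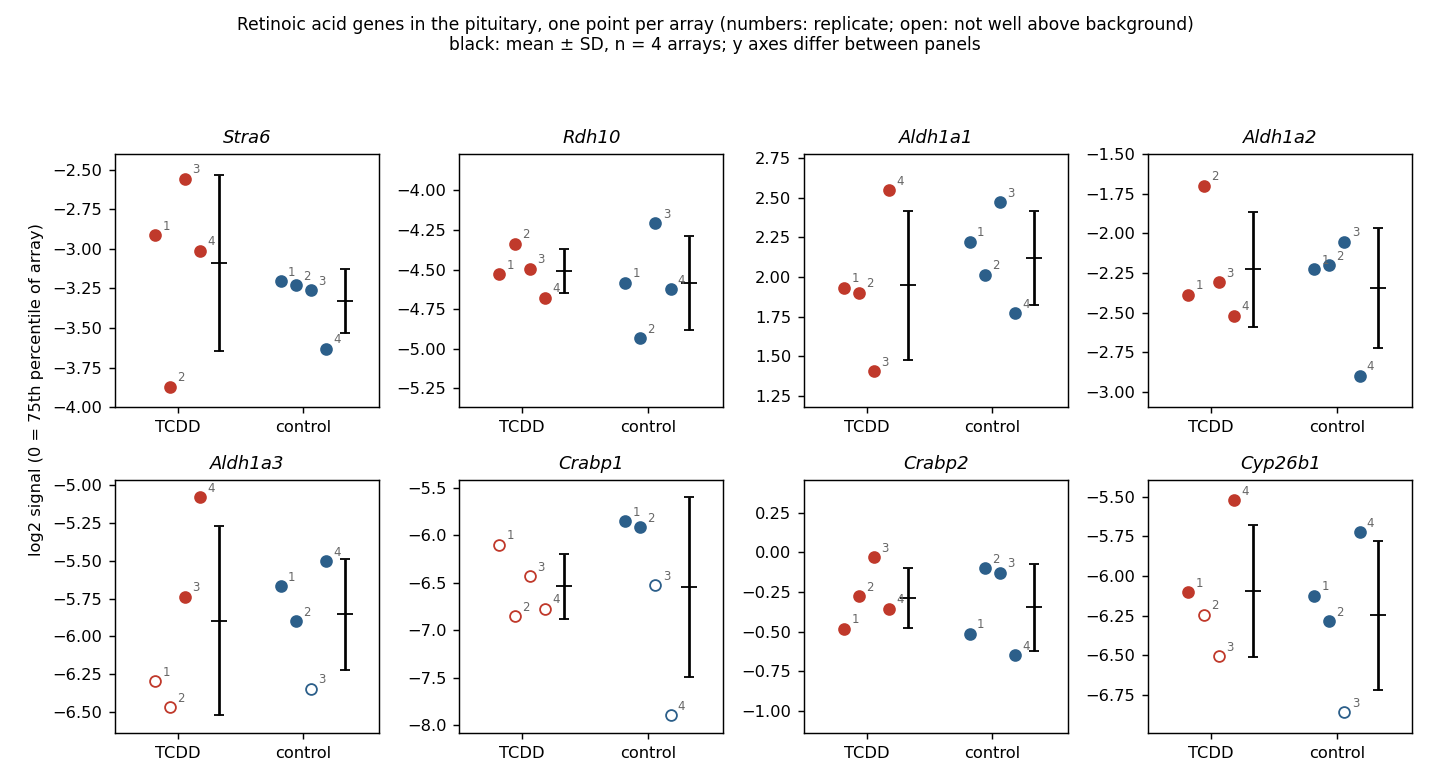
Log2 signal of the 8 genes with a probe, relative to the 75th percentile of each array, in the 4 TCDD samples (left, red) and the 4 control samples (right, blue), with the replicate number at each point and the mean and SD in black. Open points were not well above background, and the points of the groups overlap in every panel.

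Stra6 encodes the membrane receptor through which cells take up retinol from its carrier protein. Its log2 signal was -2.92, -3.87, -2.56 and -3.01 in the TCDD samples, against -3.20, -3.23, -3.26 and -3.63 in the control samples. TCDD replicates 1, 3 and 4 were above every control sample and TCDD replicate 2 was below every one. The difference was 0.24 (SE 0.26, 95% interval -0.35 to 0.84, limma adjusted p = 0.81), the largest of the 7 in size. Without TCDD replicate 2, the 1 TCDD sample below the controls, the difference was 0.50 (limma adjusted p = 0.44). The groups then no longer overlapped, which follows from the choice of the sample left out. A marker score is the mean log2 signal of a list, centred on the 8 arrays. In TCDD replicate 2 the score was the lowest of the TCDD group in 8 of the 10 marker lists. Stroma (-0.21), meninges (-0.45) and leukocytes (-0.18) were among them, and the erythrocyte score was the highest of the group. Over the 8 samples Stra6 followed the leukocyte score at Pearson's r = 0.81 (permutation p = 0.016, adjusted over 70 relations p = 0.37) and Spearman's rho = 0.71 (permutation p = 0.058, adjusted p = 0.58), and r was 0.66 without the 2 samples farthest from the median score. Its relations with the stroma and meninges scores did not pass either (adjusted permutation p = 0.71 for r in each). Without the 2 farthest samples r with the meninges score was -0.67. Over all 8 samples r was 0.56 with the stroma score and 0.56 with the meninges score. It was larger with the melanotroph and corticotroph score (0.67), the folliculostellate score (0.65) and the endothelium score (0.58). These did not pass either (adjusted permutation p for r = 0.61, 0.61 and 0.68).

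Rdh10 encodes the dehydrogenase that makes retinal from retinol in the embryo. It was at -4.53, -4.33, -4.49 and -4.68 in TCDD samples and at -4.58, -4.93, -4.21 and -4.62 in control samples. The TCDD values all lay within the control range. The difference was 0.08 (SE 0.15, 95% interval -0.26 to 0.42, limma adjusted p = 0.90), so that changes from 0.832-fold to 1.34-fold lie within its interval.

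Aldh1a1 encodes the first of 3 enzymes that turn retinal into retinoic acid. Its signal was high on these arrays, at 385% of the 75th percentile in the TCDD mean and 435% in the control mean. The TCDD samples had 1.93, 1.90, 1.40 and 2.55, and the control samples had 2.22, 2.01, 2.47 and 1.77. Both the lowest and the highest of the 8 values were TCDD samples, replicates 3 and 4, and they stood 2.21-fold apart. The difference was -0.17 (SE 0.24, 95% interval -0.73 to 0.39, limma adjusted p = 0.86), and without TCDD replicate 3 it was 0.0076.

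Aldh1a2, the main source of retinoic acid in the early embryo, was at -2.39, -1.70, -2.31 and -2.52 in TCDD samples. In control samples it was at -2.23, -2.20, -2.05 and -2.90. TCDD replicate 2 was the highest sample and control replicate 4 the lowest. Between them, control replicates 1, 2 and 3 all lay above TCDD replicates 1, 3 and 4. That order appears only once the 2 extreme samples are set aside. The difference of 0.12 (SE 0.23, 95% interval -0.41 to 0.65, limma adjusted p = 0.91) was -0.06 without TCDD replicate 2 and -0.07 without control replicate 4.

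Aldh1a3, which serves the developing eye and nose, gave a signal near the limit of detection. Its probe was well above background on 2 TCDD arrays (replicates 3 and 4) and 3 control arrays (replicates 1, 2 and 4). Values were -6.30, -6.47, -5.74 and -5.08 in TCDD samples, against -5.67, -5.90, -6.35 and -5.50 in control samples. On these arrays the lowest probe called well above background lay between -6.44 and -6.03, so the dimmest values are close to that floor. The difference was -0.04 (SE 0.32, 95% interval -0.77 to 0.69, limma adjusted p = 0.98), and its sign turned when any of 4 arrays was left out.

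Crabp2 encodes a binding protein that carries retinoic acid to the receptor RAR. TCDD samples had -0.48, -0.28, -0.03 and -0.36, and control samples -0.51, -0.10, -0.13 and -0.65. All 4 TCDD values but that of replicate 3 lay inside the control range, which control replicate 4 extended downward. The difference was 0.06 (SE 0.15, 95% interval -0.29 to 0.41, limma adjusted p = 0.93), and -0.04 without control replicate 4.

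Crabp1 encodes the other cytoplasmic binding protein, which is known to bring retinoic acid to the enzymes that break it down. It was not well above background on any TCDD array and was so on 2 control arrays, replicates 1 and 2, and therefore was not tested. Its values were -6.10, -6.85, -6.43 and -6.78 in TCDD samples, against -5.85, -5.92, -6.52 and -7.90 in control samples. Control replicates 1 and 2 were the brightest, and the values of the other 6 arrays lie too near background to be ordered. No fold is given, since the mean of the control group lay below the floor of the TCDD group.

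The Crabp1 probe was printed on 10 spots of each array, as was that of Cyp26b1, and the spots show how firmly each array read them. Spots marked as outliers were left out. For Crabp1, 4, 0, 1 and 1 spots were well above background in TCDD replicates 1 to 4, and 9, 8, 0 and 0 in control replicates 1 to 4. In all 6 of 39 spots were so called in the TCDD group and 17 of 38 in the control group, and control replicates 1 and 2 supplied all 17. Spots of 1 array share a sample, so these counts describe arrays and not conditions. The SD between the spots of 1 array ran from 0.28 to 0.58 in TCDD samples and from 0.17 to 0.34 in control samples.

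**Figure D2:**
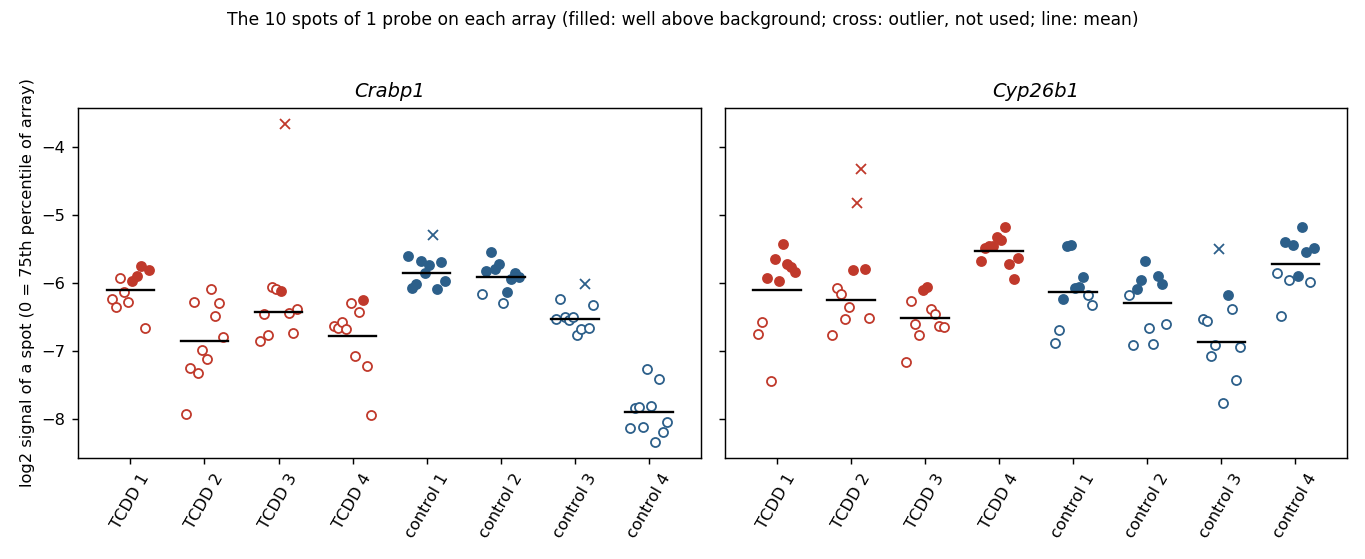
Log2 signal of each of the 10 spots of the Crabp1 probe (left) and the Cyp26b1 probe (right) on the 4 TCDD arrays (red) and the 4 control arrays (blue), with filled points well above background, crosses for outlier spots that were not used and a line at the mean. Most Crabp1 spots were filled in control replicates 1 and 2 and none used was in control replicates 3 and 4, and Cyp26b1 was brightest in TCDD replicate 4.

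Cyp26b1 encodes an enzyme that clears retinoic acid, and in other tissues its gene is itself induced by retinoic acid. It was at -6.10, -6.24, -6.51 and -5.52 in TCDD samples and at -6.12, -6.29, -6.86 and -5.72 in control samples. Its probe was well above background on 2 TCDD arrays and 3 control arrays, and the values lie near the detection floor given for Aldh1a3. With outlier spots left out, 7, 2, 2 and 10 spots were well above background in the TCDD samples and 6, 5, 1 and 6 in the control samples, 21 of 38 against 18 of 39. The groups overlapped over nearly the same range. The difference was 0.15 (SE 0.27, 95% interval -0.48 to 0.79, limma adjusted p = 0.90), and its sign turned without TCDD replicate 4 or without control replicate 3. With the background corrected by limma's normexp it was 0.02.

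Rarb encodes a retinoic acid receptor whose own gene is a classic target of retinoic acid. Both probes of LOC684994 were read in its place and kept apart from the members, since the files tie only a description to that receptor. The first, printed above, had -6.88, -7.21, -6.56 and -6.13 in TCDD samples and -5.19, -6.28, -6.02 and -6.31 in control samples. It was well above background on 1 TCDD array and 2 control arrays, too few to be tested with the other genes, so the values that follow rest mostly on levels not well above background. In the limma fit over all probes it differed by -0.74 (SE 0.31, adjusted p = 0.65, unadjusted p = 0.047), and an exact two-sided permutation test gave p = 0.086. The groups overlapped, as TCDD replicate 4 lay above 2 control samples. The second probe, at chr15:10489684-10489743, was not well above background on any array.

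Exact two-sided permutation tests over the 70 assignments of 4 of 8 arrays gave p from 0.40 for Stra6 to 0.91 for Aldh1a3 among the 7 members tested, where 0.029 is the smallest p this design allows. In bulk tissue, fewer cells of a type and less RNA per cell cannot be told apart, and this holds for every level given here.

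The members varied more between samples of 1 group than most genes did, a comparison made after their values were seen. The pooled SD within groups was above the median of all genes tested (0.15) for all 7 members, of which Aldh1a3 and Cyp26b1 were not well above background on 3 arrays each. Dim probes vary more, so each was also set beside the genes of its own level decile, and 6 of 7 lay above the decile's median. Rdh10 was the exception, with an SD of 0.23 beside a decile median of 0.24. The widest gap was that of Aldh1a1, whose SD of 0.39 stood beside a decile median of 0.097 and was above that of 98.2% of the genes in its decile. Aldh1a2 (0.37 beside 0.14), Stra6 (0.42 beside 0.19) and Crabp2 (0.24 beside 0.11) were above 92.3%, 89.1% and 88.1% of theirs.

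**Figure D3:**
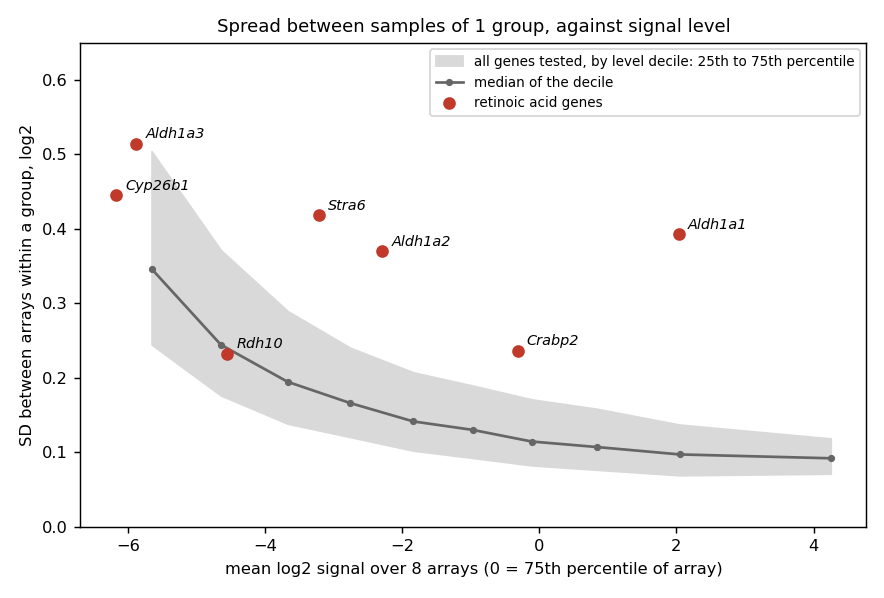
Pooled SD within groups (log2, y axis) against the mean log2 signal over the 8 arrays (x axis) for the 7 members tested (red), over the median and the 25th to 75th percentile of all genes tested by level decile (grey). Aldh1a1 stands furthest above the grey line at its level, and Rdh10 lies just under it.

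Among the control samples, replicate 4 had the lowest value for Stra6, Aldh1a1, Aldh1a2 and Crabp2, and the highest for Aldh1a3 and Cyp26b1. The same sample had the lowest score of the group in 9 of the 10 marker lists and the highest in that of erythrocytes. It was lowest for markers of stroma (-0.47, with 11 of 12 listed genes measured), meninges (-0.87, 5 of 8), folliculostellate cells (-0.25, 10 of 11) and the posterior lobe (-0.42, 9 of 11), as well as for the hormone cell, endothelium and leukocyte lists. TCDD replicate 2 was the lowest of its group in 8 of the 10 lists and likewise the highest for erythrocytes. The stroma score ranged from -0.21 to 0.35 in TCDD samples and from -0.47 to 0.18 in control samples. That of the meninges ranged from -0.45 to 0.39 in TCDD samples and from -0.87 to 0.42 in control samples. Of the 70 relations between a member and a marker score over the 8 samples, 0 passed after adjustment (smallest adjusted permutation p = 0.054). Defining genes not measured above background on enough arrays were Postn for stroma, Foxd1, Slc6a20 and Alx4 for meninges, Sox9 for folliculostellate cells, and Gfap and Col25a1 for the posterior lobe.

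The rest of the pathway was read from lists of genes by role, 58 genes beside the members. All 58 had a probe and 42 were tested, of which 20 had a positive difference and 22 a negative one, with a median of -0.01. By limma 0 of the 42 passed the threshold, 3 (7.14%) had an unadjusted p under 0.05, against 10.7% of all genes, and 1 (2.38%) had groups that did not overlap, against 7.1%. With the members included, 49 genes were tested and again 0 passed.

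**Figure D4:**
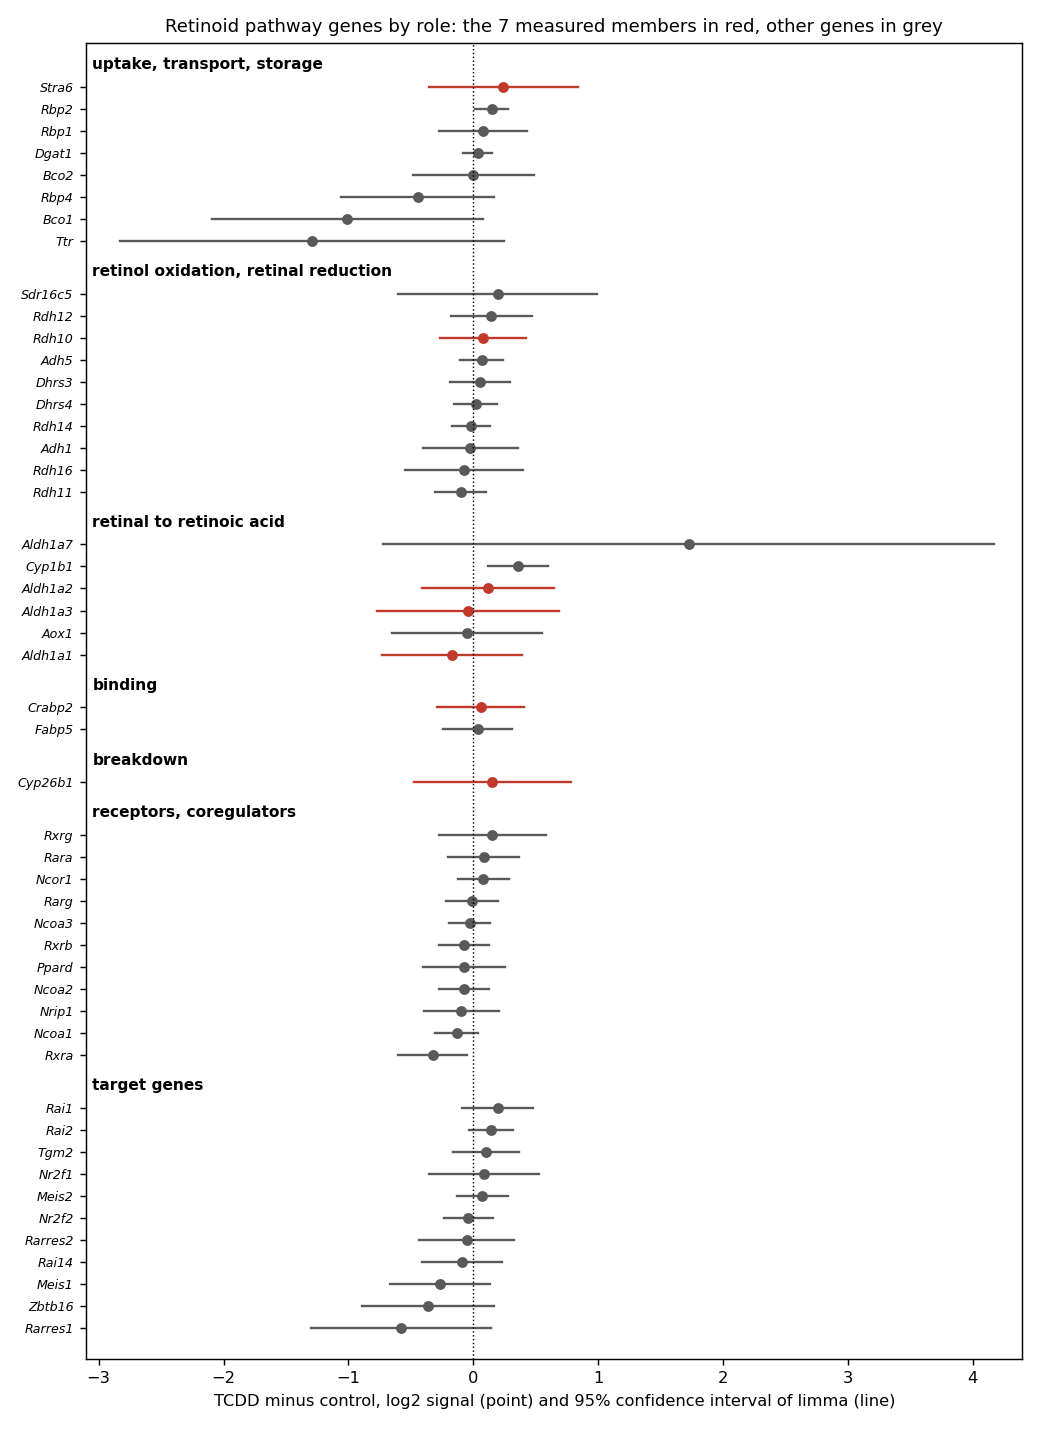
Difference between TCDD and control samples in log2 signal (point) with its 95% confidence interval (line) for the 49 retinoid genes tested, grouped by role, with the 7 members in red. Most intervals include 0, those of Rbp2, Cyp1b1 and Rxra lie to 1 side of it, and Aldh1a7 has the widest. Dhrs3 is drawn under retinol oxidation only.

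In uptake, transport and storage, 7 of 10 other genes were tested, 4 with a positive and 3 with a negative difference. Rbp2, a cellular retinol-binding protein best known from the gut, was the 1 gene whose groups did not overlap. It had 1.58, 1.50, 1.51 and 1.63 in TCDD samples, against 1.42, 1.42, 1.46 and 1.33 in control samples. All TCDD samples were above all control samples by a small step, and the means were 1.55 ± 0.06 in TCDD and 1.41 ± 0.05 in control samples (SD, n = 4 each). The difference was 0.15 (SE 0.06, limma adjusted p = 0.44, unadjusted p = 0.035, exact permutation p = 0.029). The groups overlapped with the array median as the scale (0.11) and under normexp (0.08), and in both, as with the replicate number as a block, the unadjusted p in limma no longer reached 0.05. The unadjusted limma p was also above 0.05 with quantile normalization (0.061) and with the second deposited table (0.057). It was likewise above 0.05 without TCDD replicate 1 or 4 or control replicate 1, 2 or 4 (0.060 to 0.083). Rbp4, the carrier of retinol in blood, had 4.12, 4.64, 4.73 and 3.57 in TCDD samples and 4.71, 4.34, 4.75 and 5.04 in control samples. Its groups overlapped, with a difference of -0.45 (SE 0.27, limma adjusted p = 0.62) that was -0.21 without TCDD replicate 4 and -0.29 with array weights. The largest differences of this role were -1.29 for Ttr (SE 0.67, limma adjusted p = 0.55) and -1.01 for Bco1 (SE 0.47, limma adjusted p = 0.51). Their groups overlapped. Ttr was well above background on 2 TCDD and 3 control arrays, and Bco1 on 2 TCDD and 4 control arrays.

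In the oxidation of retinol and the reduction of retinal, 9 of 15 other genes were tested, 5 with a positive and 4 with a negative difference. The brightest probes were those of Adh5, an alcohol dehydrogenase known for its action on formaldehyde adducts, and Rdh11, which reduces retinal. Adh5 averaged 3.04 ± 0.05 in TCDD and 2.98 ± 0.12 in control samples, and Rdh11 averaged 1.23 ± 0.15 in TCDD and 1.33 ± 0.10 in control samples (SD, n = 4 each). Their limma adjusted p-values were 0.81 and 0.75.

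In the step to retinoic acid itself, 3 of 4 other genes were tested. Cyp1b1 is a cytochrome P450 known as an AhR target, and the human enzyme can oxidise retinal. Its values were -1.39, -1.50, -1.66 and -1.80 in TCDD samples, against -2.05, -1.99, -1.98 and -1.77 in control samples. All TCDD samples but replicate 4 were above all control samples, and that replicate lay just below control replicate 4. The difference was 0.36 (SE 0.11, 95% interval 0.12 to 0.60), a ratio of 1.28-fold, with a limma adjusted p of 0.32, an unadjusted p of 0.0090 and an exact permutation p of 0.057. Aox1, an aldehyde oxidase, averaged -0.89 ± 0.30 in TCDD and -0.84 ± 0.52 in control samples (SD, n = 4 each).

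Aldh1a7, a rodent relative of Aldh1a1, is named outside the rule for named genes because of its values. They were -1.56, -1.32, -0.32 and -0.99 in TCDD samples and -1.43, -1.44, -6.37 and -1.83 in control samples. Control replicate 3 was the 1 array on which the probe was not well above background, and its spot carried no outlier mark. The difference of 1.72 (SE 1.06, limma adjusted p = 0.63) was 0.52 without that array.

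**Figure D5:**
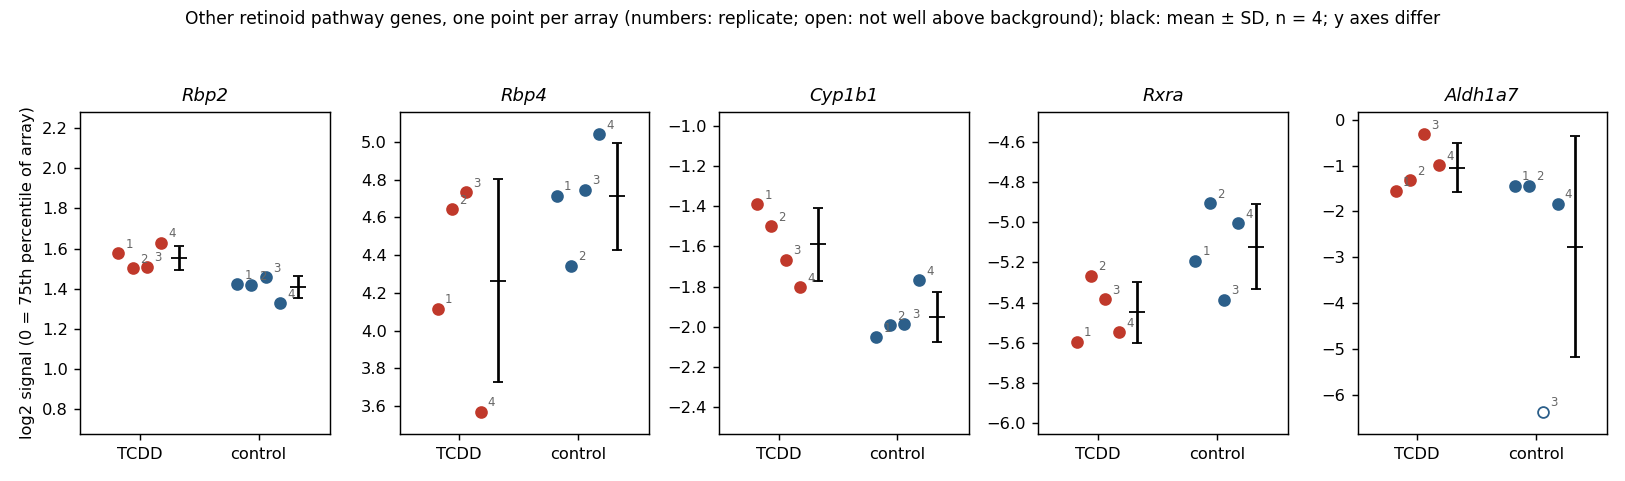
Log2 signal of Rbp2, Rbp4, Cyp1b1, Rxra and Aldh1a7, relative to the 75th percentile of each array, in the 4 TCDD samples (left, red) and the 4 control samples (right, blue), with the replicate number at each point and the mean and SD in black. The groups separate for Rbp2 and overlap for the others, and the open point of Aldh1a7 is control replicate 3 at -6.37.

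For binding and breakdown few other genes could be read. Fabp5, a fatty acid binding protein that also carries retinoic acid, averaged 1.36 ± 0.24 in TCDD and 1.33 ± 0.10 in control samples (SD, n = 4 each; difference 0.04, limma adjusted p = 0.95). Cyp26a1 and Cyp26c1, relatives of Cyp26b1, were well above background on 2 arrays and 1 array of 8 and were not tested.

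All 11 other genes listed for receptors and their coregulators were tested, 3 with a positive and 8 with a negative difference, with a median of -0.07. Rxra, the shared partner of many nuclear receptors, had -5.59, -5.27, -5.38 and -5.55 in TCDD samples, against -5.19, -4.91, -5.39 and -5.00 in control samples. Control replicate 3 lay among the TCDD samples and the other control samples lay above all of them. The difference was -0.33 (SE 0.12, limma adjusted p = 0.41, unadjusted p = 0.027, exact permutation p = 0.086). It was -0.05 under normexp, and there and with a trended and robust variance the unadjusted p in limma no longer reached 0.05. The unadjusted limma p was also above 0.05 without TCDD replicate 1 or 4 or control replicate 2 or 4 (0.067 to 0.074). Without control replicate 3 the difference was -0.41. The groups then no longer overlapped, which follows from leaving out the control sample that lay among the TCDD samples. Ncoa1, a coactivator, averaged 1.15 ± 0.05 in TCDD and 1.28 ± 0.13 in control samples, and Rarg, a receptor for retinoic acid, averaged 0.76 ± 0.09 in TCDD and 0.78 ± 0.15 in control samples (SD, n = 4 each). The receptors Rara (0.08), Rarg (-0.01), Rxrb (-0.07) and Rxrg (0.15) had limma adjusted p-values from 0.83 to 0.98. A second probe of Rarg differed by -0.26.

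Of 18 other genes listed as responding to retinoic acid, 12 were tested, 6 with a positive and 6 with a negative difference. Tgm2, a transglutaminase induced by retinoic acid in many cells, averaged 0.19 ± 0.17 in TCDD and 0.08 ± 0.18 in control samples. Dhrs3, which returns retinal to retinol and is also listed under oxidation, averaged -0.11 ± 0.13 in TCDD and -0.17 ± 0.17 in control samples (SD, n = 4 each). Limma adjusted p-values in this list ran from 0.55 to 0.95. The early targets Hoxb1 and Stra8 were well above background on at most 1 array and were not tested.

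As a check of the exposure 5 AhR target genes were read, and 2 passed the threshold. Cyp1a1 and Cyp1a2, cytochrome P450 enzymes that AhR induces, were well above background on all 4 TCDD arrays and on 0 control arrays. Cyp1a1 was at least 7.28-fold higher (limma adjusted p = 0.028) and Cyp1a2 at least 2.88-fold higher (limma adjusted p = 0.029), each measured mean of TCDD samples being set against the detection floor or the probe's own value in control samples. Their groups did not overlap in any of the 18 alternatives that tested them, but each passed in only 8, with adjusted limma p from 0.020 to 0.32. Neither passed with the replicate block (0.32), under normexp (0.24 and 0.27), without TCDD replicate 1 (0.081 and 0.093) or without control replicate 3 (0.13 for both). Ahrr, the AhR repressor, was at least 1.68-fold higher but did not pass (adjusted p = 0.20). Nqo1, a quinone reductase (1.09, adjusted p = 0.18), and Aldh3a1, an aldehyde dehydrogenase (0.75, adjusted p = 0.30), did not pass either.

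Prl, Gh1 and Pomc, hormone genes that define the labelled tissue, were bright in both groups. Prl averaged 8.17 in TCDD and 8.17 in control samples. Gh1 averaged 8.41 in TCDD and 8.49 in control samples, and Pomc 8.62 in TCDD and 8.63 in control samples. Some other hormone cell genes were less level, with groups that overlapped. Fshb differed by -0.71, Gnrhr by -0.52, Ghrhr by -0.33 and Pou1f1 by 0.35 (limma adjusted p = 0.38, 0.45, 0.62 and 0.44). Erythrocyte markers, 5 of 8 listed, had scores of -0.00 to 0.72 in TCDD samples and -0.73 to 0.22 in control samples. Of 70 marker genes measured, 2 (2.86%) had groups that did not overlap, against 7.1% of all genes. They were the erythrocyte gene Slc4a1 (1.39, limma adjusted p = 0.12) and the leukocyte gene Mpo (0.73, limma adjusted p = 0.090), both with all TCDD samples above all control samples. The other leukocyte markers measured went either way, with groups that overlapped. Their differences were -0.03 for Ptprc, -0.16 for Cd68, -0.19 for Cd74, 0.02 for Itgam and 0.19 for Lyz2.

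Promoters from 250 bases before to 50 after the start, from RefSeq on the GRCr8 assembly, were at hand for 8 of the 9 members, Rdh10 being the one without. They were searched on both strands for the direct repeat with a spacer of 5 bases (DR5) to which RAR and RXR are known to bind together. It was found in 1 of 8, that of Rarb, and in 0.382% of all 33469 promoters. The site is shown because Rarb is the member known to carry such a repeat, so this match is no result about the members as a set. It lies at chr15:11336416-11336432 on the plus strand, from base 25 after the start, with the repeated parts in capitals.
Rarb: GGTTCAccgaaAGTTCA
The core of the AhR binding site, GCGTG, was found in 5 of the 8 (Aldh1a2, Aldh1a3, Crabp1, Crabp2 and Cyp26b1) and in 29.7% of all promoters. The promoter of Rarb held no GCGTG. Of the 5 genes with the core, 4 were tested, and their differences were 0.12, -0.04, 0.06 and 0.15 in the order Aldh1a2, Aldh1a3, Crabp2 and Cyp26b1.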

How the data were processed

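Cy3-labelled RNA of 8 pituitary samples was hybridised to 1-colour Agilent arrays, per the labels' protocols, and grouped by the agent named there. Agilent Feature Extraction 10.7.1.1 gave each spot's processed intensity, which the authors deposited on a linear scale, background-subtracted and not scaled between arrays, per the file headers. Probe coordinates are on rn4. A second deposited table, of intensities brought to 1 shared distribution, was an alternative. Of 30367 probes, 18006 were named by accession, 2654 by symbol and 559 by older symbol through a RefSeq table, while 9148 stayed under the files' name. The 75th percentile of each array was subtracted from log2 intensity. Outlier spots were dropped and a probe's other spots averaged. A probe was well above background on an array unless most of its spots lacked that flag. The brightest kept probe stood for a gene. The test was limma 3.58.1 (lmFit, eBayes; R 4.3.3), two-sided, with group as the sole term and Benjamini-Hochberg adjustment over 17361 genes. The code was tested on simulated data.

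The members and gene lists were chosen with earlier results of these data known. Some listed genes are not reported here. Named genes were all members, pathway genes with an unadjusted p under 0.05 or groups that did not overlap, the 2 brightest other genes of each role, 5 genes of the exposure check, and marker genes near background or with groups that did not overlap. Aldh1a7, Prl, Gh1, Pomc, Rara, Rxrb, Rxrg, Cyp26a1, Cyp26c1, Hoxb1 and Stra8 are named outside this rule, after their values were seen. So are Ttr, Bco1, Fshb, Gnrhr, Ghrhr, Pou1f1, Ptprc, Cd68, Cd74, Itgam and Lyz2. Ncoa2, Nrip1, Rai14 and Meis2 are likewise named outside it, for single samples that stood apart. Marker scores are means of a list's log2 values, centred on the 8 arrays. Alternatives changed the scaling, background correction, filter on dim probes, probe summary, outlier spots, variance model or array weights, used the second table, blocked on replicate number, or left out 1 array. The number of arrays limits the precision.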

Additional observations from a re-analysis of the deposited data

Results flagged for a closer look

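Within groups of 4, single samples stood apart from the other samples for 13 of the 124 sets of values checked (10.48%). Chance alone gives about 5% where values are normal and sets are independent. These sets share the same arrays, and the share over all genes was not computed, so no excess is read from these percentages. The measure is the gap to the nearest sample as a share of the whole range, beyond the 95% critical value of Dixon's test. Among the members this held for Stra6, low in control replicate 4 (0.866). Control replicate 4 also stood apart for Aox1 (0.878), Rara (0.924) and the erythrocyte markers (0.895). Other control samples did so for Aldh1a7 (replicate 3, 0.919) and Ncoa2 (replicate 2, 0.838). In the TCDD group it was seen for Adh5 (replicate 1, 0.886), Nrip1 (replicate 1, 0.894), Rai14 (replicate 2, 0.888), Tgm2 (replicate 3, 0.847), Meis2 (replicate 4, 0.941), the LOC684994 probe that was not well above background on any array (replicate 4, 0.902) and the melanotroph and corticotroph markers (replicate 3, 0.853).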

How the results depend on the processing

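Under all 19 alternatives, 0 of the members and 0 of the retinoid pathway genes tested passed the threshold, and the members' median difference ran from 0.02 to 0.14. The count of genes past the threshold, 14, was 9 with median scaling, 30 with array weights, 4 with a trended and robust variance, 1 with the deposited table, 1 with quantile normalization and 0 with normexp (limma, 1923 at an unadjusted p under 0.05); with 1 array left out it ran from 0 to 11. Members whose groups did not overlap numbered 0, and 0 to 1 with an array left out. The 1 was Stra6 without TCDD replicate 2, its sole TCDD value below the controls. Cases that turned sign were Rdh10 under normexp (-0.0010), where Stra6 was 0.11 and Cyp26b1 0.02, and Crabp2 with array weights (-0.0026). With an array left out, differences ran from -0.37 to 0.0076 for Aldh1a1, -0.0675 to 0.21 for Aldh1a2, -0.31 to 0.15 for Aldh1a3, -0.0387 to 0.14 for Crabp2, -0.0499 to 0.33 for Cyp26b1, -0.0372 to 0.20 for Rdh10 and 0.07 to 0.50 for Stra6. The lowest values of Aldh1a2 and Crabp2 came without control replicate 4, of Cyp26b1 without control replicate 3 and of Rdh10 without control replicate 2. The cause of these shifts was not tested. Aldh1a3 and Cyp26b1 have no value where all 8 arrays must be well above background.

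With the replicate number as a block, 0 genes passed in limma (1514 at an unadjusted p under 0.05) and the member differences were as before, with Aldh1a1 at -0.17. Deviations of same-numbered samples correlated at -0.10 to -0.02 over 4 pairs, and those of other pairs at -0.17 to 0.21. No pairing by number was seen, but this measure cannot show that there was none.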

Other observations

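The 7 members tested were set against the 10 marker lists over the 8 samples, 70 relations in all, chosen after the data were seen. None passed after Benjamini-Hochberg adjustment. The strongest was that of Cyp26b1 with the lactotroph and somatotroph markers, at Pearson's r = -0.93 (permutation p = 7.7e-04, adjusted p = 0.054) and Spearman's rho = -0.90 (permutation p = 0.0046, adjusted p = 0.32). Without the 2 samples farthest from the median of the marker score, r was -0.94. That score ranged only from -0.05 to 0.01 in TCDD samples and from -0.06 to 0.11 in control samples, the narrowest span of the 10 lists. On 3 of the 8 arrays Cyp26b1 was not well above background and its other values lie near the detection floor, so r and rho rest in part on levels not measured above background. Crabp2 followed the melanotroph and corticotroph markers at r = 0.90 (permutation p = 0.0032, adjusted p = 0.11) and rho = 0.79 (permutation p = 0.028, adjusted p = 0.58), and r was 0.80 without the 2 farthest samples. With 4 samples in a group, and each group on its own slide, no value within a slide is given.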
